A study of Homo sapiens with 9 samples.

Results

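MYADM, CST6 and GJB2 were among the genes with the largest decreases in expression when Diff cells were compared with U87 cells, and their levels were followed here across U87, GSCs and Diff cells. They are 3 of the 60606 genes in the deposited RNA-seq table, of which 22909 were expressed strongly enough to be tested. They were chosen by their measured fold change in that comparison, so its values are given below as a description with no test. The U87 libraries come from wild-type cells of U87, a long-established line grown from a human glioblastoma. GSCs are radioresistant glioblastoma stem cells that were derived from U87, grown in serum-free neural stem cell medium with EGF and bFGF and irradiated repeatedly. Diff cells are radioresistant glioblastoma cells obtained from those irradiated GSCs by differentiation in medium with serum, then cultured from selected clones. The study kept U87 cells in medium with serum too, so GSCs differ from both other lines in medium. Each cell line had 3 libraries, and all 9 came from this single parental line. GSCs and Diff cells differ from U87 in irradiation, in selection and in culture history together, so these cannot be told apart, and no irradiated U87 cells or unirradiated GSCs were analysed here.

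The 3 genes encode proteins of the cell surface and its surroundings. MYADM, the myeloid-associated differentiation marker, is a membrane protein with MARVEL domains that lies in cholesterol-rich membrane rafts and takes part in placing the small GTPase Rac1 at the membrane. CST6 encodes cystatin E/M, a secreted inhibitor of the cysteine proteases legumain, cathepsin L and cathepsin V, and GJB2 encodes connexin 26, a subunit of the gap junction channels that join the cytoplasm of neighboring cells. CST6 and GJB2 are best known from the epidermis and other epithelia, whereas the main connexin of astrocytes is connexin 43, the product of GJA1.

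In GENCODE 29 on GRCh38, MYADM (ENSG00000179820) lies at chr19:53866223-53876437 on the plus strand, CST6 (ENSG00000175315) at chr11:66011841-66013505 on the plus strand and GJB2 (ENSG00000165474) at chr13:20187463-20193010 on the minus strand. The genes are therefore on different chromosomes. RefSeq gives 1 start for GJB2 and 3 starts for MYADM on GRCh38.p14, all inside the GENCODE spans above. The 250 bases before the GJB2 start and before the first and second MYADM starts are shown because these genes were low in the same cell lines. These windows thus overlap the GENCODE genes in part or in full. Capitals mark the hexamer GGGCGG, the core of a GC box, on either strand (CCGCCC is the same motif read from the other strand). The first sequence spans chr13:20192939-20193188 on the minus strand, the second chr19:53866121-53866370 and the third chr19:53867633-53867882, both on the plus strand.
GJB2: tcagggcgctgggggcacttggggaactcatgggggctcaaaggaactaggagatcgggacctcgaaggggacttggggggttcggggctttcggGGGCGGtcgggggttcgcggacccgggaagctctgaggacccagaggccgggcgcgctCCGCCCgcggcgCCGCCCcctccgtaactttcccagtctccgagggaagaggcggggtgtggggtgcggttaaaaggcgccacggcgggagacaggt
MYADM, first start: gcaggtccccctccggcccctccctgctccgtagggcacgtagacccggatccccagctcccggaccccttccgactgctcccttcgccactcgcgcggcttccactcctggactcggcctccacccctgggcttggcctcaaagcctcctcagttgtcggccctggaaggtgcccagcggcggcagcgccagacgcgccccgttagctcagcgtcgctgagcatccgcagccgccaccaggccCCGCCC
MYADM, second start: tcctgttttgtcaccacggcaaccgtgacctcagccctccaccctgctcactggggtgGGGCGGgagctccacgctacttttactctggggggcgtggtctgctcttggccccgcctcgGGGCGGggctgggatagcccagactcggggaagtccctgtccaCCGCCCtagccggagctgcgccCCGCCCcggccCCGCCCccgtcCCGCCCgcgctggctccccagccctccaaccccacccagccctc

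The GJB2 window and the 3 MYADM windows each held more CpG than the median promoter. The GJB2 window held 25 CpG dinucleotides at a GC content of 70.0%, and 78.4% of the 35114 RefSeq promoters had fewer CpG in a window of the same length. The 3 MYADM windows held 23, 19 and 16 CpG, and 74.2%, 65.4% and 59.0% of promoters had fewer. The median over all promoters was 11 CpG and 58.0% GC. GGGCGG occurred 3 times before GJB2 and 1, 6 and 2 times before the MYADM starts, and 42.6% of all promoters held it at least once. TATAAA, the hexamer of the TATA box, matched 1 time, before the third MYADM start (chr19:53869141-53869390). That match lay only on the strand opposite the gene, as TTTATA. Of all promoters, 10.7% had a match on either strand. Neither the CCAAT box (CCAAT, in 32.0% of all promoters) nor the AP-1 motif (TGACTCA, in 4.2%) was found in these windows on either strand. The same held for the cAMP response element (TGACGTCA, in 1.65%) and the E-box (CACGTG, in 6.35%). A match is a description of the letters and not a bound site.

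Expression is given in TPM, the number of transcripts of a gene per 1000000 transcripts, which is corrected for gene length and can be compared between genes. MYADM was an abundant transcript in U87, at 133, 127 and 128 TPM in the 3 libraries. It stood at 6.49, 3.92 and 3.64 TPM in GSCs and at 0.108, 0.254 and 0.16 TPM in Diff cells. The 3 groups did not overlap, and the order was U87, then GSCs, then Diff cells. The mean was 129 ± 2.92 TPM in U87, 4.68 ± 1.57 in GSCs and 0.174 ± 0.0741 in Diff cells (SD, n = 3). GSCs thus held 3.62% of the U87 mean and Diff cells 0.135%. The lowest U87 library was 19.6-fold above the highest GSC library. Among the 12179 protein-coding genes tested, the mean level of MYADM was above 94.4% of genes in U87.

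CST6 was lost to about the same level in both irradiated lines. The U87 libraries held 73.9, 61.9 and 60.5 TPM, a mean of 65.4 ± 7.37 (SD, n = 3). In GSCs CST6 was listed at 0 in replicates 1 and 2 and at 0.844 TPM in replicate 3. In Diff cells it was at 0.392 and 0.692 TPM in replicates 1 and 2 and listed at 0 in replicate 3. The values of GSCs and Diff cells overlapped, and both groups lay far below U87. The highest GSC library held 1.39% and the highest Diff library 1.14% of the lowest U87 library. By its mean level CST6 was above 86.6% of the protein-coding genes tested in U87.

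GJB2 was retained in part in GSCs. Its U87 libraries held 54.6, 60.0 and 48.4 TPM, its GSC libraries 6.57, 4.07 and 5.45 TPM and its Diff libraries 0.282, 0.0552 and 0.39 TPM. As for MYADM, the 3 groups did not overlap and Diff cells were the lowest. The mean was 54.3 ± 5.81 TPM in U87, 5.36 ± 1.25 in GSCs and 0.242 ± 0.171 in Diff cells (SD, n = 3), so that GSCs held 9.88% and Diff cells 0.446% of the U87 mean. The lowest U87 library was 7.36-fold above the highest GSC library and 124-fold above the highest Diff library. GJB2 ranked above 83.5% of the protein-coding genes tested in U87. In bulk RNA, fewer cells with a transcript and less transcript per cell cannot be told apart.

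Whether the genes were also lower in GSCs was asked with limma on log2(TPM + 1) over all tested genes. The U87 libraries of this comparison also entered the one that chose the genes. A gene was called when its Benjamini-Hochberg adjusted p was under 0.05 and its log2 fold change was beyond 1 in either direction. All 3 genes were called lower in GSCs, and 7.53% of the tested genes were called lower in that comparison. MYADM fell by 4.55 on the log2 scale (SE 0.168, 95% confidence interval -4.94 to -4.17, limma adjusted p = 1.5e-07). CST6 fell by 5.75 (SE 0.276, interval -6.38 to -5.13, limma adjusted p = 6.37e-07). GJB2 fell by 3.13 (SE 0.171, interval -3.52 to -2.74, limma adjusted p = 1.33e-06). CST6 met the mean of over 1 TPM needed for testing only through U87, where it is high. Its call is thus a description and no independent support. The fold change of CST6 rests on libraries listed at 0 and depends on the pseudocount. It was -8.27 with a pseudocount of 0.1 TPM and -3.74 with 5 TPM, and all 3 genes were called lower at either setting.

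The same model compared Diff cells with GSCs, and here too the Diff libraries are those that chose the genes. MYADM was lower in Diff cells by a log2 fold change of -2.24 (SE 0.168, interval -2.63 to -1.86, limma adjusted p = 2.48e-05), and its GSC mean was 26.9-fold the Diff mean. GJB2 was lower by -2.35 (SE 0.171, interval -2.74 to -1.96, limma adjusted p = 2.14e-05), with a GSC mean 22.1-fold the Diff mean. Of the tested genes, 5.36% were called lower in Diff cells than in GSCs and 2.66% higher. CST6 differed by 0.12, with an interval of -0.51 to 0.75 (limma adjusted p = 0.78), so no difference was detectable between these libraries. That interval depends on the pseudocount, since with 0.1 TPM the CST6 difference was 0.68 with an SE of 0.991. The calls for MYADM and GJB2 depended on the pseudocount: with 5 TPM the fold changes were -0.89 and -0.98, short of the fold limit, and with 0.1 TPM they were -4.11 and -4.13.

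Against U87, the log2 fold changes in Diff cells were -6.80 for MYADM, -5.64 for CST6 and -5.48 for GJB2. These values chose the genes, and 6.36% of the tested genes were called lower in Diff cells. By the size of the decrease on the log2(TPM + 1) scale MYADM was rank 1 among protein-coding genes, CST6 rank 4 and GJB2 rank 5. These ranks depend on that scale. TIMP3, named after its value was seen, kept 0.26% of its U87 level in Diff cells, less than GJB2 at 0.446% and CST6 at 0.553%. IGFBP3, an insulin-like growth factor binding protein, at -6.35 and the receptor gene NOTCH3 at -5.76 took ranks 2 and 3, and the cadherin gene FAT1, at -5.45, was the next below GJB2. In GSCs the order was different, with CST6 at rank 3, MYADM at rank 7 and GJB2 at rank 57. Of 7714 protein-coding genes with a U87 mean over 10 TPM, 34 kept under 5% of it in Diff cells and 34 in GSCs. Both limits were met by 13 genes, among them MYADM and CST6 but not GJB2, and no gene of the 7714 kept less of its U87 level in Diff cells than MYADM. The median gene kept 98.3% in Diff cells and 95.1% in GSCs.

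Over the 9 libraries, the expression of MYADM and GJB2 was correlated at a Pearson r of 0.9907, CST6 and MYADM at 0.9293 and CST6 and GJB2 at 0.8858. The points share 3 groups, so these coefficients mostly describe the order of the group means, and they carry no test. The protein-coding genes most like MYADM were LRRC15 (r = 0.9985), SERPINA1 (0.9978), ZNF395 (0.9975), TMEM45A (0.9966) and LOXL3 (0.9964). LRRC15, a leucine-rich repeat membrane protein, held 108 ± 5.75, 13.6 ± 1.59 and 5.42 ± 0.366 TPM in U87, GSCs and Diff cells (SD, n = 3). The genes most like CST6 were NRP1 (0.997), TNFSF13B (0.9967), IL21R (0.9961), ADAM32 (0.9961) and IGFBP1 (0.995). NRP1, the coreceptor neuropilin 1, held 268 ± 2.75, 75.0 ± 8.4 and 80.6 ± 4.09 TPM, a like drop in both irradiated lines at a much higher remaining level. The genes most like GJB2 were PDK1 (0.9972), IGFBP3 (0.997), ARFGEF3 (0.9968), BNIP3 (0.9965) and FAT1 (0.9963). BNIP3, a mitochondrial protein of mitophagy, held 283 ± 17.4, 47.7 ± 5.2 and 14.8 ± 1.15 TPM. Of the 12178 other coding genes, 43 had an r over 0.99 with MYADM, 45 with CST6 and 20 with GJB2.

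MYADM has a related gene, MYADML (chr2:33722721-33728207, minus strand), which GENCODE lists as a transcribed processed pseudogene. It was picked out after its values were seen. MYADML held 0, 0.057 and 0.1 TPM in U87, 15.3, 15.9 and 13.4 TPM in GSCs and 2.76, 3.51 and 3.38 TPM in Diff cells. It was thus nearly silent where MYADM was abundant and higher than MYADM in every GSC and Diff library. The log2 fold change against U87 was 3.91 in GSCs (SE 0.128, limma adjusted p = 7.77e-08) and 2.00 in Diff cells (SE 0.128, limma adjusted p = 4.87e-06), and 9.52% and 5.92% of tested genes were called higher in these comparisons. With a pseudocount of 5 TPM the Diff value was 0.70 and was not called. The transcripts of both genes were 86.8% identical over 1823 aligned bases, with a longest identical run of 37 bases, and no window of 150 bases, the read length, was identical. How reads matching both genes were counted is not given in the sources used here. The summed level of both genes was 129 ± 2.88 TPM in U87, 19.5 ± 2.39 in GSCs and 3.39 ± 0.469 in Diff cells (SD, n = 3), so the drop in MYADM exceeded the rise in MYADML in both lines.

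**Figure D1:**
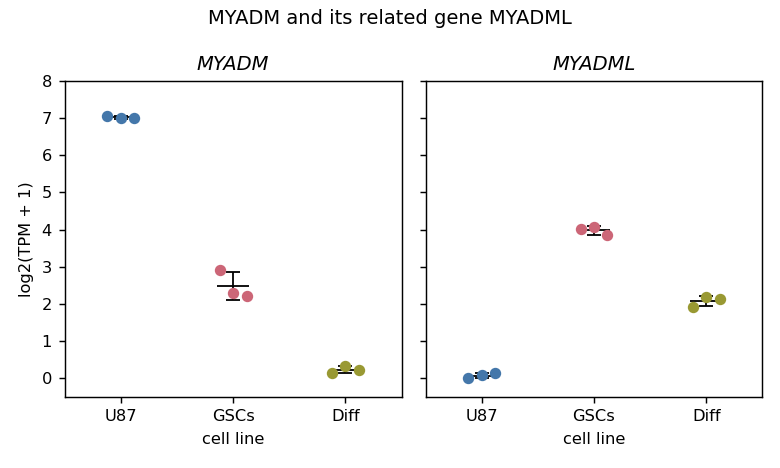
Expression of MYADM and of its related pseudogene MYADML as log2(TPM + 1) on the vertical axis in 3 libraries each of U87, GSCs and Diff cells. Points are libraries, the horizontal line is the group mean and the bars are the SD (n = 3). MYADM is highest in U87 and MYADML is highest in GSCs, at 13.4 to 15.9 TPM.

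On the strand opposite MYADM, MYADM-AS1 held 2.75, 1.97 and 0.288 TPM in U87 and at most 0.298 TPM in GSCs, and was listed at 0 in all Diff libraries. It covers 0% of the exon bases of MYADM. A further antisense gene, ENSG00000232220, covers 11.5% of them and was listed at 0 in all 9 libraries. No annotated gene overlaps CST6 or GJB2.

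Other proteins with MARVEL or MAL domains shape membrane traffic and junctions. Of 24 such genes besides MYADM, 11 were tested, 2 were lower and 2 higher in GSCs, and none was called in Diff cells against U87. The shares over all tested genes were 7.53% lower and 9.52% higher in GSCs and 6.36% and 5.92% in Diff cells. The median log2 fold changes were 0.19 in GSCs and 0.28 in Diff cells, beside 0.0168 and -0.0355 over all tested genes. CMTM7 and SYPL2 fell in GSCs by 1.46 and 1.26 on the log2 scale (limma adjusted p = 0.000134 and 0.000173). CMTM5 rose by 2.05 and SYPL1 by 1.04 (limma adjusted p = 2.42e-05 and 4.25e-05), and SYPL1 was no longer called without GSC replicate 3, at 0.92. With a pseudocount of 5 TPM, CMTM5, CMTM7 and SYPL2 were not called, at 0.71, -0.58 and -0.44. CMTM5 passed the filter on low values only through GSCs and SYPL2 only through U87. These counts are thus no support for a direction of the list.

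Raft scaffolds and cortex proteins that surround MYADM at the membrane changed less than MYADM. Of 18 genes, 16 were tested, 3 were lower and 1 higher in GSCs, and none was called in Diff cells against U87, with medians of -0.09 and -0.21. Over all tested genes, 7.53% were called lower and 9.52% higher in GSCs, and 6.36% and 5.92% in Diff cells. CAV1, the structural protein of caveolae, held 628 ± 36.4 TPM in U87, 273 ± 36.0 in GSCs and 430 ± 11.9 in Diff cells (SD, n = 3), a log2 fold change of -1.20 in GSCs (limma adjusted p = 9.15e-06). CAVIN3, a caveolar coat protein, and EHD2, an ATPase at the caveolar neck, fell by 1.02 and 1.03 in GSCs (limma adjusted p = 1.93e-05 and 3.78e-06). Both lay close to the fold limit. Without GSC replicate 3 the values were -0.95 and -0.96, and without U87 replicate 2 EHD2 was at -0.996 and not called. CAVIN1 was at -0.93 in GSCs and -0.50 in Diff cells (limma adjusted p = 2.52e-05 and 0.00151), short of the fold limit. STOM, the raft protein stomatin, rose by 1.20 in GSCs (limma adjusted p = 6.07e-06). Without the fold limit, 8 genes of the list were lower and 6 higher in GSCs, and 8 and 5 in Diff cells. The counts over all 22909 tested genes were then 5334 and 5795, and 4685 and 4339. EZR, which links the membrane to actin, held 114 ± 1.56, 78.5 ± 4.88 and 174 ± 7.76 TPM in U87, GSCs and Diff cells and was called only between the irradiated lines, at 1.14 higher in Diff cells (limma adjusted p = 3.17e-06).

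Few other cystatins were expressed. Of 17 other cystatins 3 were tested, and 7 were listed at 0 in every library. None of the 3 was called lower and 1 was called higher in GSCs and 1 in Diff cells. Beside these, 7.53% of all tested genes were called lower and 9.52% higher in GSCs, and 6.36% and 5.92% in Diff cells. The gene higher in Diff cells, CSTA, passed the filter on low values only through Diff cells. CSTB, the intracellular inhibitor cystatin B, was already more abundant than CST6 in U87, at 372, 452 and 301 TPM, and held 2310, 2020 and 1660 TPM in GSCs and 743, 720 and 732 TPM in Diff cells. It rose by 2.42 on the log2 scale in GSCs (SE 0.155, limma adjusted p = 3.39e-06). In Diff cells its change was 0.98 (limma adjusted p = 0.00106), just under the fold limit, and it was called at 1.13 without U87 replicate 2 and at 1.02 to 1.15 under 3 other scalings of the libraries. CST3, the secreted cystatin C, held 76.9 ± 1.66, 106 ± 10.4 and 84.0 ± 3.87 TPM and was not called. CSTA, the epidermal cystatin A, held 0.136 ± 0.144 TPM in GSCs, a log2 fold change of -0.70 (limma adjusted p = 0.0184) that was not called, but was called lower at -2.14 with a pseudocount of 0.1 TPM. It rose from 0.864 ± 0.444 TPM in U87 to 2.72 ± 0.213 in Diff cells (log2 fold change 1.02, limma adjusted p = 0.00352), a call that was lost without U87 replicate 1 or 3 or Diff replicate 3, at 0.90 to 0.98.

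Among the proteases that cystatins inhibit, LGMN was lower and several cathepsins were higher. Of 12 such genes 10 were tested, and in GSCs 1 was lower and 5 were higher, whereas in Diff cells 1 was lower and 3 were higher. Over all tested genes, 7.53% were lower and 9.52% higher in GSCs and 6.36% and 5.92% in Diff cells, so 1 of 10 lower is near the background. The medians were 0.98 and 0.78. LGMN, encoding legumain, the main target of cystatin E/M, held 24.5, 22.3 and 25.8 TPM in U87, 9.22, 9.62 and 8.98 in GSCs and 8.30, 7.79 and 8.11 in Diff cells, with log2 fold changes of -1.29 and -1.47 (limma adjusted p = 2.11e-06 and 1.54e-06). CTSL, the other well-known target in this list that was tested, held 61.7 ± 5.12, 182 ± 3.82 and 124 ± 1.61 TPM. It rose by 1.55 in GSCs (limma adjusted p = 2.31e-07) and stood at 1.00, on the fold limit, in Diff cells, where it was called at 1.03 to 1.05 under the other scalings and at 1.00 to 1.04 without U87 replicate 1 or 2 or Diff replicate 2 or 3. CTSV was near 0 throughout, at 0.059 TPM or less. CTSK, encoding cathepsin K, a collagen-degrading protease, had the largest rise, from 39.5, 40.7 and 34.6 TPM in U87 to 587, 524 and 652 in GSCs and 612, 513 and 523 in Diff cells, log2 fold changes of 3.90 and 3.81 (limma adjusted p = 3.04e-08 and 4.99e-08). CTSF and CTSS rose in both lines, by 1.74 and 1.07 in GSCs and by 1.67 and 1.49 in Diff cells (limma adjusted p from 4.34e-07 to 0.000109), and CTSO by 1.29 in GSCs (limma adjusted p = 5.15e-05). CTSS in GSCs was not called without U87 replicate 3 or GSC replicate 3, at 0.99 in each case.

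GJB2 was the most abundant connexin after GJA1 in U87. Of 20 other connexins only GJA1 and GJC1 were tested. The other 18 did not exceed 2.13 TPM in any library, and 3 were listed at 0 throughout. GJA1 held 276, 282 and 303 TPM in U87, 490, 442 and 568 in GSCs and 163, 166 and 160 in Diff cells. It was thus highest in GSCs and lowest in Diff cells with no overlap. Its log2 fold change was 0.79 in GSCs and -0.81 in Diff cells, neither past the fold limit, and -1.60 between Diff cells and GSCs (SE 0.0855, limma adjusted p = 4.2e-06). GJC1, encoding connexin 45, held 36.9 ± 1.75, 50.8 ± 10.9 and 34.5 ± 2.37 TPM and was not called. GJB6, which encodes connexin 30, the usual partner of connexin 26, did not exceed 0.0355 TPM.

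Of 7 pannexins and connexin partners 3 were tested, of which 2 were lower in GSCs and 1 in Diff cells, beside 7.53% and 6.36% of all tested genes. TJP1, the junction scaffold ZO-1, held 47.0 ± 1.19, 19.9 ± 2.71 and 21.7 ± 1.4 TPM, with log2 fold changes of -1.21 and -1.08 (limma adjusted p = 1.04e-05 and 2.85e-05). CNST, a protein of connexin delivery to the membrane, fell by 1.12 in GSCs (limma adjusted p = 0.000685), a call lost without GSC replicate 2, at -0.999. With a pseudocount of 5 TPM, CNST in GSCs and TJP1 in Diff cells were not called, at -0.74 and -0.97. PANX1 held 43.9 to 48.8 TPM in U87, 61.5 to 66.5 in GSCs and 42.3 to 43.1 in Diff cells and was not called.

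**Figure D2:**
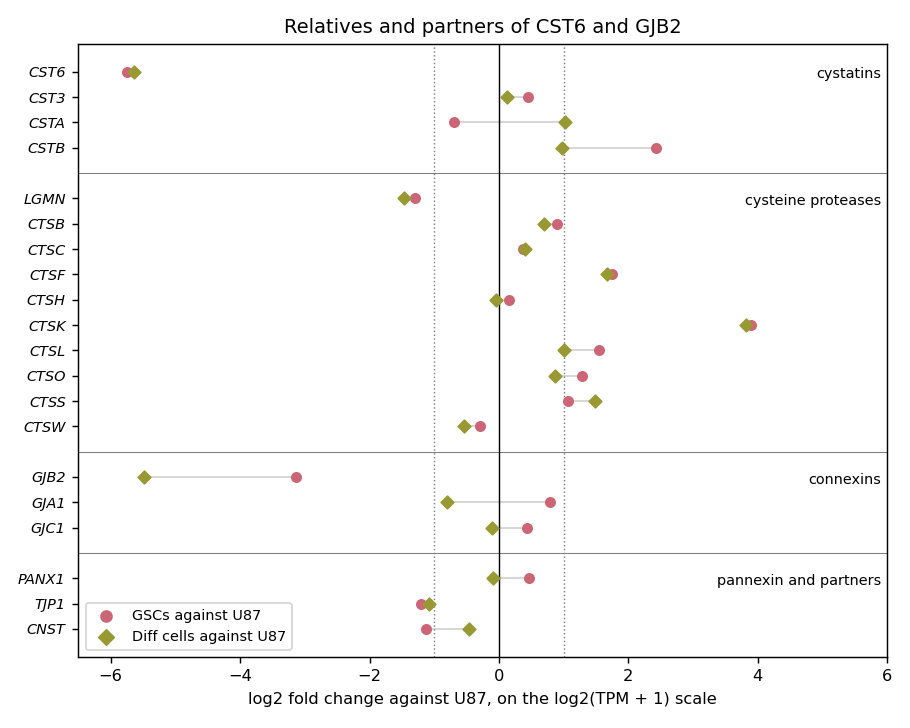
Log2 fold change against U87 on the log2(TPM + 1) scale (horizontal axis) in GSCs (circles) and Diff cells (diamonds) for CST6, GJB2 and the tested genes of the cystatin, cysteine protease, connexin and pannexin or partner lists. Dotted lines mark the fold limit of 1 in either direction. CST6 and GJB2 lie at -5.75 to -3.13, whereas CSTB reaches 2.42 and CTSK 3.90.

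Since CST6 and GJB2 are epidermal genes, 18 genes of keratinocyte differentiation were examined. Only 3 were tested, and in Diff cells 2 of them, FLG and CSTA, were higher than in U87, beside 5.92% of all tested genes. Both passed the filter on low values only through Diff cells, where they are high, so this count is no support for a direction of the list. FLG, encoding filaggrin of the cornified layer, held 0.554, 0.485 and 0.534 TPM in U87, 0.67, 0.491 and 0.56 in GSCs and 31.3, 32.6 and 33.7 in Diff cells, which is 4.46 higher than in U87 on the log2 scale (SE 0.106, limma adjusted p = 2.86e-08). Every Diff library lay above every U87 and GSC library.

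The labels were compared with marker genes. VIM, an intermediate filament gene of glioma cells, held 1640 ± 18.6, 1210 ± 112 and 616 ± 34.7 TPM in U87, GSCs and Diff cells. GFAP did not exceed 2.57 TPM in any library and the stem cell genes SOX2 and PROM1 were low throughout, SOX2 at 0 to 0.115 TPM in U87, 0.809 to 0.994 in GSCs and 0.11 to 0.185 in Diff cells and PROM1 at 0.121 to 0.238, 0.379 to 0.596 and 0.0156 to 0.0366 TPM. FABP7 held 0.546 to 0.986, 4.38 to 5.82 and 2.53 to 3.27 TPM. NES, encoding nestin, which the study measured as a stemness marker in treated and untreated Diff cells, was highest in U87. It held 33.0 ± 2.22, 22.6 ± 0.812 and 13.5 ± 1.02 TPM (SD, n = 3). Its log2 fold change was -0.53 in GSCs, not called, and -1.23 in Diff cells, called lower (limma adjusted p = 0.00047 and 4.02e-06). Of 9 glial, stem and neuronal genes, 6 were tested, and 1 was higher in GSCs whereas 2 were lower and 1 higher in Diff cells. The 2 lower genes were VIM and NES. FABP7, which passed the filter on low values only through GSCs and Diff cells, was the gene higher in each. Beside these counts, 7.53% of all tested genes were called lower and 9.52% higher in GSCs, and 6.36% and 5.92% in Diff cells. Among 10 markers of other cell types, HBB was 0 throughout and the leukocyte gene PTPRC was 0.137 TPM or less. Their summed level ran from 460 to 549 TPM in U87, 46.9 to 54.2 in GSCs and 159 to 169 in Diff cells. Most of it was COL1A1, at 497 ± 44.3, 27.7 ± 3.87 and 157 ± 5.31 TPM. COL1A1 was thus lowest in GSCs, unlike MYADM and GJB2. The endothelial gene VWF was at 11.4 ± 0.566 TPM in GSCs against 0.527 ± 0.213 in U87. The endothelial gene PECAM1 held 6.25 ± 0.868 TPM in GSCs against 2.77 ± 0.935 in U87 and was not called, at 0.97. CDH5, also endothelial, was near 0 at 0.312 ± 0.14 TPM in GSCs and 0.223 ± 0.152 in U87 and was not tested. The part of these genes in the results above was not tested. RN7SL1 and the mitochondrial genes together took 35.7% to 39.2% of the TPM of each library.

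The genes nearest to each locus were compared to see whether the loss extended along the chromosome. Beside the calls, 7.53% of tested genes were called lower and 9.52% higher in GSCs, and 6.36% and 5.92% in Diff cells. None of the 10 tested genes next to GJB2, 5 on each side and up to 419 kb away, was called in either line. ZMYM2, 95.6 kb away, changed by 0.10 in GSCs and -0.37 in Diff cells, and CRYL1, 211 kb away on the other side, by -0.20 and -0.46. Around CST6, 2 of 10 neighbors were lower in both lines. EIF1AD, a translation initiation factor-like gene that lies 9.66 kb from CST6, held 316, 75.4 and 60.4 TPM on average in U87, GSCs and Diff cells, with log2 fold changes of -2.05 and -2.37 (SE 0.0542, limma adjusted p = 3.07e-08 and 2.74e-08). TSGA10IP, 51.9 kb away, changed by -1.58 and -1.69 (limma adjusted p = 0.000383 and 0.000342). TSGA10IP passed the filter on low values only through U87. With a pseudocount of 5 TPM it was called in neither line, at -0.69 and -0.72. BANF1, a chromatin protein gene between EIF1AD and CST6 at 7.69 kb, held 402, 209 and 259 TPM and was at -0.94 and -0.63, under the fold limit, and CATSPER1, 3.25 kb away on the other side, was at -0.35 and -0.94 and not called, although its Diff value passed the limit without U87 replicate 2 or 3 or Diff replicate 3, at -1.01 to -1.07.

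Around MYADM, 1 of 10 neighbors was lower and 3 were higher in both lines. The share lower is near that over all tested genes. ZNF480, the most distant at 1540 kb, held 5.13 TPM in U87 and 0.198 and 0.0603 TPM in GSCs and Diff cells, log2 fold changes of -2.35 and -2.53 (limma adjusted p = 2.18e-06 and 2.22e-06). ZNF845, ZNF765 and the pseudogene RPL39P36 were near or at 0 in U87 and averaged 2.92, 1.81 and 4.28 TPM in GSCs and 3.05, 1.21 and 3.00 TPM in Diff cells. The call of ZNF765 in Diff cells, at 1.13, was lost under quantile normalization, at 0.98. With a pseudocount of 5 TPM, ZNF845, ZNF765 and RPL39P36 were called in neither line, at 0.31 to 0.83. At that setting ZNF480 was not called in GSCs, at -0.96. ZNF845, ZNF765 and RPL39P36 passed the filter on low values only through GSCs and Diff cells, and ZNF480 only through U87. The counts around MYADM are therefore no support for a direction along the chromosome. NDUFA3, the nearest on the other side, changed by 0.07 and 0.30 and was not called. No neighbor of any of the 3 genes was called between Diff cells and GSCs.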

How the data were processed

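The 9 RNA-seq libraries comprised 3 of U87, 3 of GSCs and 3 of Diff cells. Values deposited by the authors are log2(TPM + 1) for each gene, where TPM corrects for gene length and library total. The labels describe total RNA depleted of ribosomal RNA and directional libraries, whereas the study's methods name oligo(dT) enrichment. Per the labels, the submitters' processing notes list FastQC 0.11.9, Trimmomatic 0.39, HISAT2 2.2.1, featureCounts 2.0.5, R 4.2.0 and GRCh38. The annotation, the strand setting and the treatment of reads with several matches are not given in the sources used here.

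Back-transformed values summed to 1000000 in each library. TPM keeps no depth, so depth is unknown and neither counting intervals nor detection floors were computed. The study's general statistics statement speaks of biological replicates, but the labels do not say that these RNA-seq libraries came from separate cultures. If they did not, p-values measure only the spread between these libraries, which may be technical.

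Genes with a mean over 1 TPM entered limma (3.58.1, under R 4.3.3) on log2(TPM + 1), in 1 model of the 3 groups with a trend and Benjamini-Hochberg adjustment over the 22909 genes. Fold changes are on this scale, which understates changes of low genes. A call needed an adjusted p under 0.05 and a log2 fold change beyond 1. The procedure was tested on simulated data. Named genes were the 3 genes, the most abundant or called members of 9 gene lists, the 5 coding genes most correlated with each gene, its 5 nearest tested genes on each side and the coding genes ranked down to the first below GJB2. Those 3 genes and the lists were chosen with earlier results of these data known. MYADML and the antisense genes were added after values were seen. GENCODE 29 gave positions and names for 57015 of 60606 genes, and RefSeq the promoters of GJB2 and MYADM. Alternatives changed the pseudocount, filter, scaling, trend, libraries and groups in the model, added the replicate number as a block, or dropped the fold limit.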

Additional observations from a re-analysis of the deposited data

Results flagged for a closer look

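The decrease against U87 was larger in Diff cells than in GSCs for MYADM and GJB2, and both are listed because the difference between the lines passed the test. Since both decreases are measured against the same U87 libraries, this difference equals the comparison of Diff cells with GSCs. It was -2.24 on the log2 scale for MYADM and -2.35 for GJB2, and every Diff library was below every GSC library in both cases. The Diff libraries are those on which the genes were chosen, so the size of the difference is not independent of that choice. With 3 libraries per line, single libraries were not screened for outlying values.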

How the results depend on the processing

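The fold changes of MYADM, CST6 and GJB2 between GSCs and U87 kept their direction and their call under every alternative run, at -4.81 to -3.81, -8.27 to -3.74 and -3.34 to -2.52. In Diff cells against GSCs, MYADM and GJB2 kept their call except with a pseudocount of 5 TPM, at -0.89 and -0.98 (limma adjusted p = 0.000237 and 0.00016), where the larger pseudocount compresses low values by construction. CST6 in the same comparison changed sign at -0.0291 without GSC replicate 1 or 2 and at -0.05539 without Diff replicate 2, over a range of -0.06 to 0.41 when single libraries were left out, and was never called. The descriptive values in Diff cells against U87 ran from -8.92 to -4.70 for MYADM, -7.59 to -3.71 for CST6 and -7.46 to -3.50 for GJB2 between pseudocounts of 0.1 and 5 TPM, and were -7.33, -6.10 and -5.98 without RN7SL1 and the mitochondrial genes. FLG in GSCs, not called, changed sign at -0.08144 under quantile normalization, and the cause was not tested. Several calls of other named genes near the fold limit or at low levels were lost with a pseudocount of 5 TPM.

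Counts of called genes, lower and higher, were 1726 and 2182 for GSCs against U87, then 1456 and 1356 for Diff cells against U87 and 1227 and 609 for Diff cells against GSCs. With a pseudocount of 5 TPM they were 742 and 965, 608 and 538, and 463 and 210. With a filter at a mean over 5 TPM, which tests fewer genes, they were 962 and 1292, 776 and 807, and 703 and 335. Without the fold limit they were 5334 and 5795, 4685 and 4339, and 4535 and 3447. Same-numbered libraries did not visibly deviate together, with correlations of -0.0416 to 0.0489, beside -0.0575 to 0.0535 for libraries with unlike numbers. Whether same-numbered libraries were cultured or prepared together cannot be told from these values. With the replicate number as a block the counts were 1728 and 2189, 1453 and 1357, and 1225 and 606, and MYADM, CST6 and GJB2 were called lower in GSCs with limma adjusted p = 5.76e-06, 2.35e-05 and 2.4e-05.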

Other observations

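KRT5 and KRT14, the paired keratins of basal keratinocytes, were picked out after their values were seen. They stood at 5.54 and 6.03 TPM in Diff replicate 1 and at 0.0661 TPM or less in the other 8 libraries. In Diff replicate 1, CST6 was at 0.392 TPM and GJB2 at 0.282 TPM, within the range of the other Diff libraries. FLG was at 31.3 TPM there, the lowest of the 3 Diff libraries.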
